A study of Mus musculus with 7 samples.

Results

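The genes described here fold secreted proteins in the endoplasmic reticulum (ER) and carry them to the Golgi. They were chosen by gene symbol, with earlier results of these data known. The rule takes named chaperones, the isomerase P4hb, named stress regulators, and every Pdia, Sec, Ssr, Kdelr and COPI subunit symbol on a probe set with exactly 1 symbol. This gave 57 genes on 100 probe sets, out of 12393 genes on the array, and each gene was read from its probe set of highest mean. The study sorted bone-lineage cells of bone marrow stroma from OsxCre-mCherry;OcnCre-Topaz double transgenic mice 4 to 6 weeks old, 6 days after tamoxifen. The Ocn+ group (Topaz, driven by the osteocalcin promoter, 3 arrays) is set against the Osx+ group (mCherry, driven by the osterix promoter, 4 arrays). All 7 arrays come from animals with both transgenes and tamoxifen. Double-positive cells were left aside here, and the labels do not say whether an array is 1 animal or a pool. Since only the labels make the replicates separate samples, a p-value here measures the spread among these arrays, part of which may be technical.

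A secreted protein enters the ER through the Sec61 channel, loses its signal peptide and is folded by chaperones and disulfide isomerases. COPII-coated vesicles then take it to the Golgi, while COPI-coated vesicles and KDEL receptors bring escaped ER residents back. When unfolded protein builds up, the sensors Ern1 and Atf6 and the transcription factor Xbp1 switch on chaperone genes. Osteoblasts export large amounts of type I collagen and depend on this route.

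Atf6 and Xbp1 act through the ER stress element, CCAAT and CCACG set 9 bases apart. The RefSeq promoter table (GRCm38.p6, 250 bases before to 50 after the gene start) had an entry for 49 of the 57 genes. The element, searched on both strands, was found in 7 of the 49 (14.3%), against 37 of 27025 genes in the table (0.137%). Of the 7, 6 are chaperones or their cofactors and 1, Pdia6, is a disulfide isomerase. These sites are shown because the mean of each of the 7 genes was lower in Ocn+ cells, as described below, with 0 of them passing the test. The element is in capitals with 30 bases on each side, read on the strand that starts with CCAAT.
Hspa5, chr2:34771995-34772073, plus strand, element 65 to 47 bases before the start: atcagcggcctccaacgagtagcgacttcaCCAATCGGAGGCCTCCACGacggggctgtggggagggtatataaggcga
Hsp90b1 upper site, chr10:86705608-86705686, minus strand, 212 to 194 bases before the start: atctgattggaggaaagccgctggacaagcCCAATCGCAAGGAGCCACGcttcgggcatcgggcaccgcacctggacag
Hsp90b1 lower site, chr10:86705503-86705581, plus strand, 107 to 89 bases before the start: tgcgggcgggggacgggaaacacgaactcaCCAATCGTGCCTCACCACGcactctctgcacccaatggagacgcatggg
Calr, chr8:84847045-84847123, plus strand, 162 to 144 bases before the start: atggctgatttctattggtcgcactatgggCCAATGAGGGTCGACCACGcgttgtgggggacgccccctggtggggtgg
Canx, chr11:50325770-50325848, minus strand, 145 to 127 bases before the start: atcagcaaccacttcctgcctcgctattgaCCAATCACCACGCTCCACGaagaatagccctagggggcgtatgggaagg
Dnajc3, chr14:118937797-118937875, plus strand, 105 to 87 bases before the start: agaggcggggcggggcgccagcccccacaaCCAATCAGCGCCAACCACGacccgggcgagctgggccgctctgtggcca
Creld2, chr15:88819490-88819568, minus strand, 126 to 108 bases before the start: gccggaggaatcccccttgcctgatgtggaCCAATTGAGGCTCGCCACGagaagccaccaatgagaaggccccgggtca
Pdia6, chr12:17266461-17266539, plus strand, 98 to 80 bases before the start: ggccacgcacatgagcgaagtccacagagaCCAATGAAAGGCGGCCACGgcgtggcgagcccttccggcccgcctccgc
The 9 bases between CCAAT and CCACG differ from site to site. A related element of the same pathway, ATTGG and CCACG set 1 base apart, was found in 0 of the 49 and in 0.0444% of all promoters. Another, TGACGTGG, was found in 6 of the 49 (12.2%), against 0.714% of all promoters: Copb1, Copb2, Kdelr3, Sec16b, Sec23a and Sec24d. A match describes letters only and shows no binding.

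For none of these 57 genes did the difference between Ocn+ and Osx+ cells pass the test. In limma, 0 of the 57 had an adjusted p under 0.05, and over all genes the share was 0.00%. At an unadjusted limma p under 0.05 the count was 0 in each direction, while over the whole array 3.48% reached it higher in Ocn+ cells and 1.83% lower, 5.31% together. The smallest unadjusted limma p among the 57 was 0.120, for Sec14l4, and every adjusted p was 0.999. In 1 gene, the signal peptidase subunit Sec11a, all Ocn+ arrays lay above all Osx+ arrays, where the share over all genes was 4.37%. In 0 genes did all Ocn+ arrays lie below all Osx+ arrays, where it was 2.53%, or 6.90% for both directions. In sorted bulk samples, fewer cells of a type and less RNA per cell cannot be told apart.

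The median difference, Ocn+ minus Osx+, was 0.02 log2 units, and 0.02 over all 12393 genes. Of the 57 genes, 31 lay above and 26 below 0, and with each array centred on its median 18 lay above and 39 below. Over all genes 52.7% lay above 0, and 42.8% after that centring. The median size of a difference, sign aside, was 0.13 log2 units in these genes and 0.18 over all genes. The median spread within groups (pooled SD) was 0.22 log2 units in these genes and 0.37 over all genes. A difference over 1 log2 unit in size was seen in 1 gene, Pdia4, and in 3.52% of all genes. The 95% interval of the difference lay within 1 log2 unit on both sides of 0 for 45 of the 57 genes. For Hsp90b1, Canx, Sdf2l1, Pdia4, Sec62, Sec63, Sec61a2, Sec24d, Copb1, Atf6, Ddit3 and Sec14l2 the arrays do not bound the difference that tightly.

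**Figure D1:**
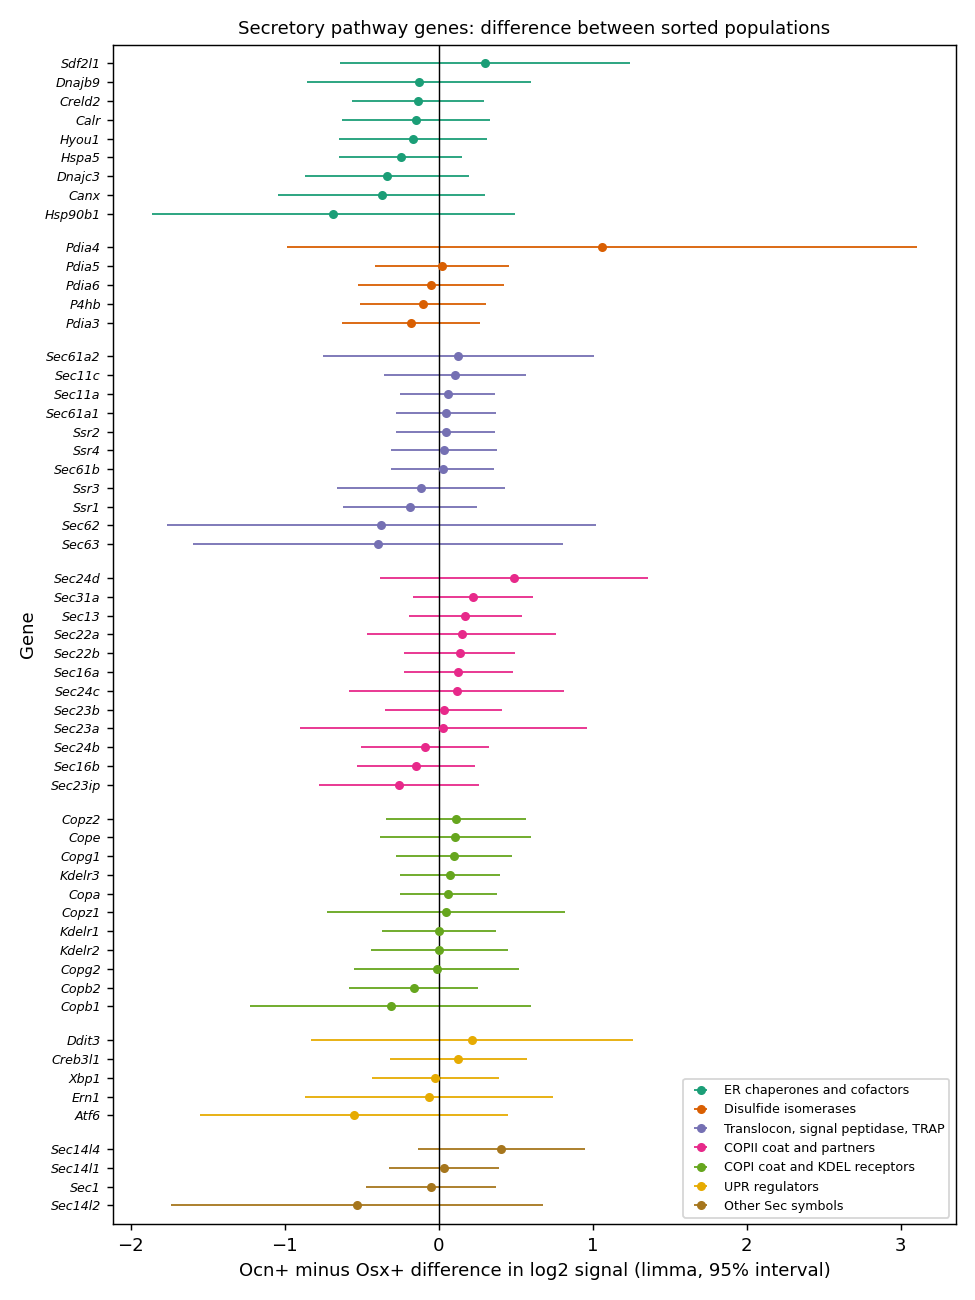
Difference in log2 signal between Ocn+ and Osx+ arrays (horizontal axis) for each of the 57 genes, grouped by role, with the limma 95% interval. Every interval includes 0, and the chaperones lean to the left, with 8 of 9 points below 0.

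ER chaperones and their cofactors leaned to lower signal in Ocn+ cells. Of 9 genes, 8 had a lower mean in Ocn+ cells and 1 (Sdf2l1) a higher one, with a median difference of -0.17, and in limma 0 of the 9 passed. The count below 0 was 8 of 9 after quantile normalization or median centring, but 6 of 9 without Ocn+ replicate 1 and 7 of 9 without Osx+ replicate 2. It was also 7 of 9 with the mean of all probe sets (median -0.14) and with the probe set of largest variance (median -0.19). With array weights it was 7 of 9 and the median moved to -0.027, while leaving out Ocn+ replicate 2 gave a median of -0.30 and leaving out Osx+ replicate 1 gave -0.29. Within the libraries of high and of low Xist signal, described below, 8 of 9 were again below 0, with medians of -0.18 and -0.34.

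Hspa5 encodes BiP, the most general chaperone of the ER lumen. Its log2 signal was 13.05, 13.29 and 13.18 in the Ocn+ arrays and 13.14, 13.59, 13.51 and 13.44 in the Osx+ arrays. Osx+ replicate 1 lay among the Ocn+ arrays and the other 3 Osx+ arrays above all of them. It averaged 13.17 ± 0.12 on the Ocn+ arrays (SD, n = 3), against 13.42 ± 0.19 for Osx+ (SD, n = 4), a difference of -0.25 (SE 0.17, limma adjusted p = 0.999, 95% interval -0.64 to 0.15).

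Hsp90b1 encodes the ER member of the Hsp90 family and carries the element at 2 sites. It stood at 10.01, 10.78 and 10.99 in Ocn+ cells and at 10.11, 12.04, 11.06 and 11.88 in Osx+ cells. The Osx+ arrays spread over both the low and the high end, so the difference of -0.68 had an SE of 0.50 and a 95% interval from -1.86 to 0.50 (limma adjusted p = 0.999). It was -1.07 without Osx+ replicate 1, -0.43 without Osx+ replicate 2 and -0.39 without Ocn+ replicate 1.

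Canx and Calr are the lectin chaperones that hold glycoproteins until they fold, Canx in the membrane and Calr in the lumen. Canx stood at 11.82, 12.56 and 12.59 in Ocn+ cells and 12.38, 13.15, 12.40 and 12.84 in Osx+ cells, a difference of -0.37 (SE 0.29). The brightest pair were Osx+ replicates 2 and 4, and the dimmest array was Ocn+ replicate 1, without which the difference was -0.12. Calr differed by -0.14 (SE 0.20), with group means of 13.56 ± 0.28 on the Ocn+ arrays (SD, n = 3), against 13.71 ± 0.22 for Osx+ (SD, n = 4).

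Dnajc3 is a BiP cochaperone that also restrains the stress kinase PERK. It stood at 11.17, 11.32 and 11.70 in Ocn+ cells and 11.32, 11.81, 11.75 and 12.04 in Osx+ cells, with only Osx+ replicate 1 inside the Ocn+ range. The difference was -0.34 (SE 0.23, 95% interval -0.87 to 0.20). The remaining chaperone genes were Hyou1 (-0.17), Creld2 (-0.13), Dnajb9 (-0.13) and Sdf2l1 (0.30), all with overlapping groups.

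The 7 genes that hold the ER stress element were all lower in mean in Ocn+ cells, with a median difference of -0.25 and a range from -0.68 to -0.05. This count was made after the values were seen, 6 of the 7 are among the chaperones just counted, and 0 of the 7 passed in limma. Within the high-Xist libraries 7 of the 7 were below 0 and within the low-Xist libraries 6. Among 11 other measured genes with it, 5 were below and 6 above 0, with a median of 0.01. Of the 6 genes with the other element, TGACGTGG, 3 were below and 3 above 0, with a median of -0.06.

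**Figure D2:**
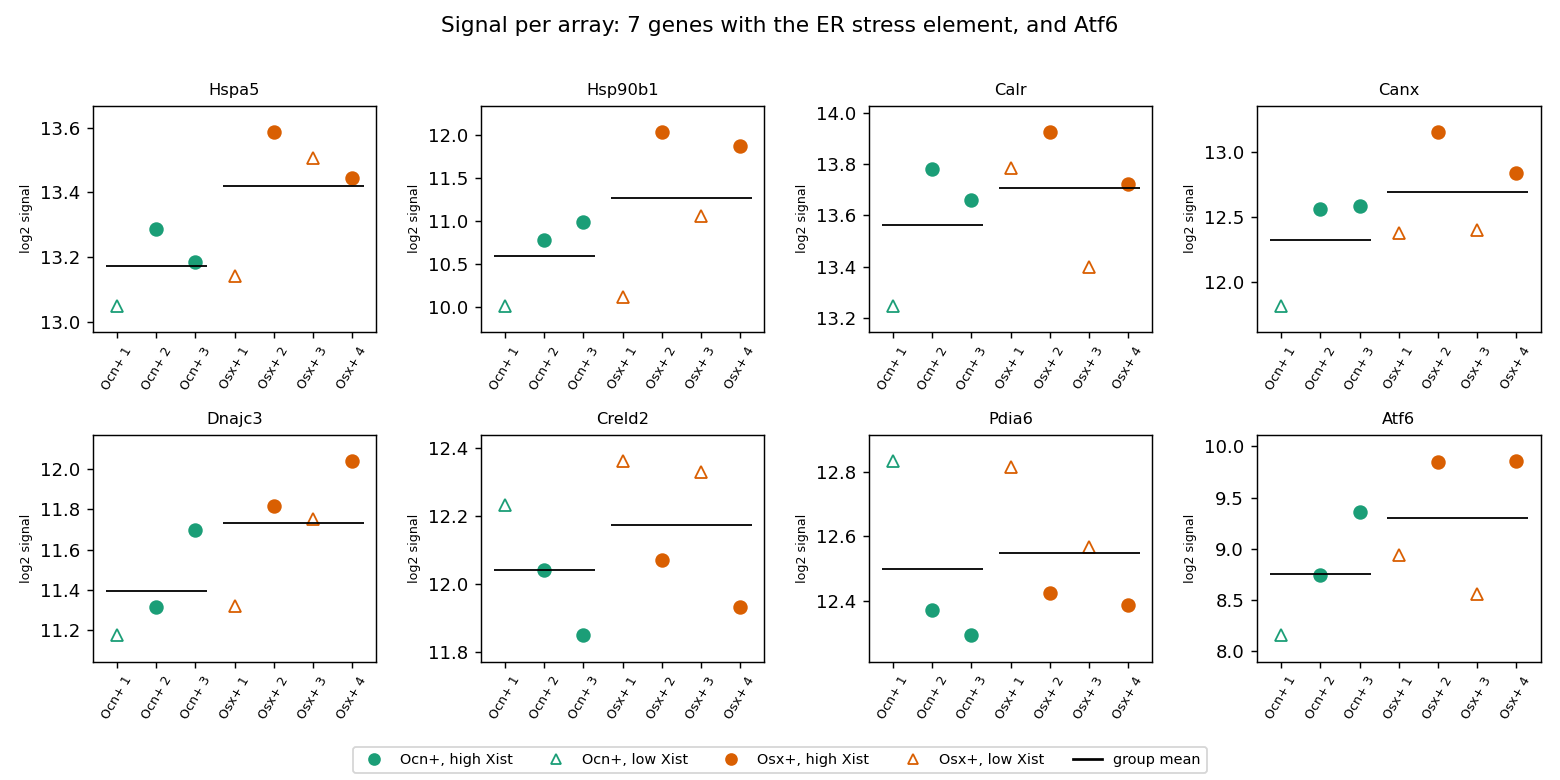
Log2 signal (vertical axes, each on its own scale) in each of the 3 Ocn+ arrays (green, left) and 4 Osx+ arrays (orange, right) for the 7 genes with the ER stress element and for Atf6; horizontal bars are group means, filled circles high-Xist and open triangles low-Xist libraries. The Ocn+ mean is the lower in all 8 panels, and in each the arrays of the groups overlap.

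Disulfide isomerases form and rearrange the disulfide bonds of secreted proteins. Of 5 genes, 2 lay above and 3 below 0. The split was 1 above and 4 below after median centring or without Osx+ replicate 2. It was 3 above and 2 below without Ocn+ replicate 2, without Ocn+ replicate 3 or without Osx+ replicate 1. P4hb, the isomerase that is also a subunit of collagen prolyl hydroxylase, differed by -0.10 (SE 0.17), Pdia3 by -0.18 (SE 0.19), Pdia6 by -0.05 (SE 0.20) and Pdia5 by 0.02.

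Pdia4 had the largest difference of the 57 genes and the widest interval. It stood at 10.66, 11.76 and 11.77 in Ocn+ cells and at 8.93, 11.87, 8.87 and 11.68 in Osx+ cells. Osx+ replicates 1 and 3 were far below every other array, and Osx+ replicates 2 and 4 were level with Ocn+ replicates 2 and 3. The difference of 1.06 (SE 0.87, limma adjusted p = 0.999) had a 95% interval from -0.99 to 3.11. It was 0.59 without Osx+ replicate 1, 0.57 without Osx+ replicate 3 and 1.57 without Osx+ replicate 2, and 0.41 with array weights and 0.56 with the mean of its probe sets. It was -0.01 within the high-Xist libraries and 1.76 within the low-Xist libraries, where it rests on a single Ocn+ array. A further Pdia4 probe set was dim, between 3.90 and 4.51 on all arrays, and differed by 0.06.

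The translocon is the ER entry channel with its partners, and here it is grouped with signal peptidase (Sec11a, Sec11c) and with TRAP, the complex of Ssr proteins beside the channel. Of 11 genes, 7 lay above and 4 below 0, and after median centring 2 above and 9 below, so the count turns on the scaling. With 1 array left out it ran from 4 above without Osx+ replicate 3 to 9 above without Ocn+ replicate 1. The channel subunit Sec61a1 averaged 13.97 ± 0.10 on the Ocn+ arrays (SD, n = 3), against 13.92 ± 0.05 for Osx+ (SD, n = 4), and its difference of 0.05 had a 95% interval from -0.28 to 0.37. That interval is of its brightest probe set. The 6 Sec61a1 probe sets ran from -0.14 to 0.59, with 5 above and 1 below 0. The highest difference came from a dimmer probe set, at 8.46 to 8.59 in Ocn+ and 7.08 to 8.36 in Osx+ arrays. Sec61b, another channel subunit, differed by 0.02 (95% interval -0.31 to 0.36), and the TRAP subunits Ssr2 and Ssr4 by 0.05 and 0.03.

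Sec11a, the gene whose groups did not overlap, stood at 13.18, 13.11 and 13.11 in Ocn+ cells and 13.09, 13.05, 13.11 and 13.07 in Osx+ cells. The gap between the nearest arrays vanished at 2 decimals. The difference was 0.06 (SE 0.13, limma adjusted p = 0.999), with a 2-sided exact permutation p of 0.0571. The groups overlapped after quantile normalization, after median centring and with the mean of its probe sets. Its partner Sec11c differed by 0.10 (SE 0.20).

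Sec62 and Sec63 form the complex that helps proteins enter the channel after translation. Sec62 stood at 10.95, 12.11 and 12.30 in Ocn+ cells and 10.87, 12.96, 11.86 and 12.96 in Osx+ cells, a difference of -0.37 (SE 0.59). Sec63 stood at 8.98, 9.58 and 10.10 in Ocn+ cells and 9.22, 10.50, 9.17 and 10.91 in Osx+ cells, a difference of -0.40 (SE 0.51). In each gene Osx+ replicates 2 and 4 were brightest and Ocn+ replicate 1 and Osx+ replicate 1 were among the dimmest arrays. Without Ocn+ replicate 1 the difference was 0.048 for Sec62 and -0.11 for Sec63. Ssr1, the TRAP alpha subunit, differed by -0.19 (SE 0.19).

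COPII genes build the coat of vesicles that leave the ER. Of 12 genes, 9 lay above and 3 below 0, with a median of 0.12 (7 above after median centring and 7 to 9 with 1 array left out), and 0 passed. Sec24d and Sec23a, inner coat proteins whose loss impairs collagen export and skeletal growth in zebrafish and people, differed by 0.49 (SE 0.37) and 0.03 (SE 0.40). Sec24d stood at 12.42, 12.95 and 12.97 in Ocn+ cells and at 11.70, 12.60, 11.80 and 13.05 in Osx+ cells, with Osx+ replicates 1 and 3 lowest and Osx+ replicate 4 highest. The difference was 0.29 without Osx+ replicate 1, 0.33 without Osx+ replicate 3, 0.74 without Osx+ replicate 4 and 0.19 with array weights.

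The outer coat proteins Sec31a and Sec13 lay slightly higher in Ocn+ cells without passing. Sec31a stood at 12.79, 12.62 and 12.72 in Ocn+ cells and 12.47, 12.22, 12.59 and 12.67 in Osx+ cells, a difference of 0.22 (SE 0.17). Sec13 averaged 13.59 ± 0.14 on the Ocn+ arrays (SD, n = 3), against 13.41 ± 0.13 for Osx+ (SD, n = 4), a difference of 0.17 (SE 0.16). Sec23ip, a partner of the inner coat, had the lowest difference of the role, at -0.26 (SE 0.22). The other 7, Sec16a, Sec16b, Sec22a, Sec22b, Sec23b, Sec24b and Sec24c, lay between -0.15 and 0.15.

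COPI coat and KDEL receptor genes run the return route and differed little. Of 11 genes, 8 lay above and 3 below 0 (4 above and 7 below after centring or without Osx+ replicate 2), between -0.31 and 0.11, with a median of 0.05. The alpha coat subunit Copa averaged 12.57 ± 0.05 on the Ocn+ arrays (SD, n = 3), against 12.50 ± 0.05 for Osx+ (SD, n = 4). Copb1 and Copb2, the beta subunits, differed by -0.31 (SE 0.39) and -0.16 (SE 0.18), Copg1 by 0.10 (SE 0.16) and Copz2 by 0.11 (SE 0.19). The receptors Kdelr1 and Kdelr2, which retrieve escaped chaperones, differed by 0.00 each, with 95% intervals of -0.37 to 0.38 and -0.44 to 0.45, and Kdelr3 by 0.07. A dimmer Kdelr2 probe set differed by 0.31 (SE 0.15), at 12.58 to 12.61 in Ocn+ and 12.13 to 12.47 in Osx+ arrays. The Kdelr2 difference thus depended on the probe set read.

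The regulators of the unfolded protein response had differences on both sides of 0. Of 5 genes, 2 lay above and 3 below 0, a split that single arrays decided. Without Osx+ replicate 2 it was 0 above and 5 below (median -0.10), without Ocn+ replicate 1 it was 1 above and 4 below (median -0.13), and without Osx+ replicate 1 it was 3 above and 2 below (median 0.16). Atf6, a sensor cut in the Golgi to free a transcription factor, stood at 8.15, 8.75 and 9.36 in Ocn+ cells and 8.94, 9.85, 8.56 and 9.85 in Osx+ cells. Its difference of -0.55 (SE 0.43, limma adjusted p = 0.999) left the groups overlapping, with Osx+ replicates 2 and 4 above every Ocn+ array. It was -0.25 without Ocn+ replicate 1 and -0.85 without Ocn+ replicate 3.

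Xbp1 averaged 12.61 ± 0.14 on the Ocn+ arrays (SD, n = 3), against 12.64 ± 0.21 for Osx+ (SD, n = 4), a difference of -0.02 with a 95% interval from -0.43 to 0.39. The array reads total Xbp1 signal and not its splicing, which carries the activity. Ern1, the kinase and nuclease that splices Xbp1, differed by -0.06 (SE 0.34). Its signals lay between 5.64 and 7.12, and no detection calls were used here to say whether they exceed background.

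Ddit3 encodes CHOP, a factor of prolonged ER stress. It stood at 13.02, 12.11 and 11.86 in Ocn+ cells and 12.31, 11.26, 12.94 and 11.95 in Osx+ cells, a difference of 0.22 (SE 0.44) with overlapping groups. Creb3l1 encodes OASIS, a membrane-bound factor that mouse osteoblasts need for normal bone matrix. It averaged 12.16 ± 0.07 on the Ocn+ arrays (SD, n = 3), against 12.03 ± 0.27 for Osx+ (SD, n = 4), a difference of 0.13 (SE 0.19), and 3 of the 4 Osx+ arrays lay between 12.13 and 12.22 while Osx+ replicate 2 stood at 11.63.

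The symbol rule also took 4 genes outside the secretory coat and channel. Sec14l1, Sec14l2 and Sec14l4 encode lipid-binding proteins and Sec1 is a fucosyltransferase gene. Their differences were 0.04, -0.53 (SE 0.51), 0.41 (SE 0.23) and -0.05. Sec14l4 and Sec1 were dim, at 4.62 to 5.58 and 3.95 to 4.51, and no detection calls were used here. Sec14l2 stood at 9.75 in Osx+ replicate 3 and between 7.62 and 8.44 in the other 6 arrays.

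A difference between libraries ran across both populations. The 7 arrays fall into 4 with high Xist signal (12.33 to 12.96; Ocn+ replicates 2 and 3, Osx+ replicates 2 and 4) and 3 with low Xist signal (4.87 to 5.79; Ocn+ replicate 1, Osx+ replicates 1 and 3). Xist is the RNA that silences an X chromosome, and these classes were known from earlier results of these data. The high-Xist and low-Xist libraries did not overlap for 28 of the 57 genes, and for 34.3% of all genes. Of these, 17 were higher in the high-Xist libraries, where the background over all genes is 12.9%, and 11 lower, where it is 21.4%. The median difference, high-Xist minus low-Xist, was 0.14 in these genes and -0.14 over all genes. The classes are no groups of the study and were not tested.

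Pdia4 showed the largest such gap, at 11.68 to 11.87 in the high-Xist libraries and 8.87 to 10.66 in the low-Xist libraries. Sec62 lay at 12.11 to 12.96 against 10.87 to 11.86, Sec63 at 9.58 to 10.91 against 8.98 to 9.22, and Sec23a at 13.15 to 13.22 against 12.01 to 12.30. Sec61a2, a second channel subunit gene, lay at 10.55 to 10.77 against 9.71 to 9.78. The high-Xist libraries were thus tightly grouped for Pdia4, Sec23a and Sec61a2 whichever population they held.

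Other genes ran the opposite way. Ddit3 lay at 11.26 to 12.11 in the high-Xist libraries and 12.31 to 13.02 in the low-Xist libraries, and Copz1, a small COPI subunit, at 11.00 to 11.65 and 11.93 to 12.14. Xbp1 lay at 12.39 to 12.64 in the high-Xist libraries and 12.67 to 12.90 in the low-Xist libraries.

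A measure of RNA quality moved with the same classes. The 3' minus 5' gap of the Gapdh control probe sets, which grows as transcripts are shortened or copied incompletely, was 0.59 to 0.64 log2 units in the high-Xist libraries and 0.89 to 1.26 in the low-Xist libraries. For beta-actin the classes overlapped, at 0.463 to 0.499 and 0.470 to 0.768. Between the populations the Gapdh gap was 0.60 to 0.89 in Ocn+ and 0.59 to 1.26 in Osx+ arrays. The beta-actin gap was 0.463 to 0.475 in Ocn+ and 0.480 to 0.768 in Osx+ arrays, a narrow separation. The part of these gaps in the values of the secretory genes was not tested.

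**Figure D3:**
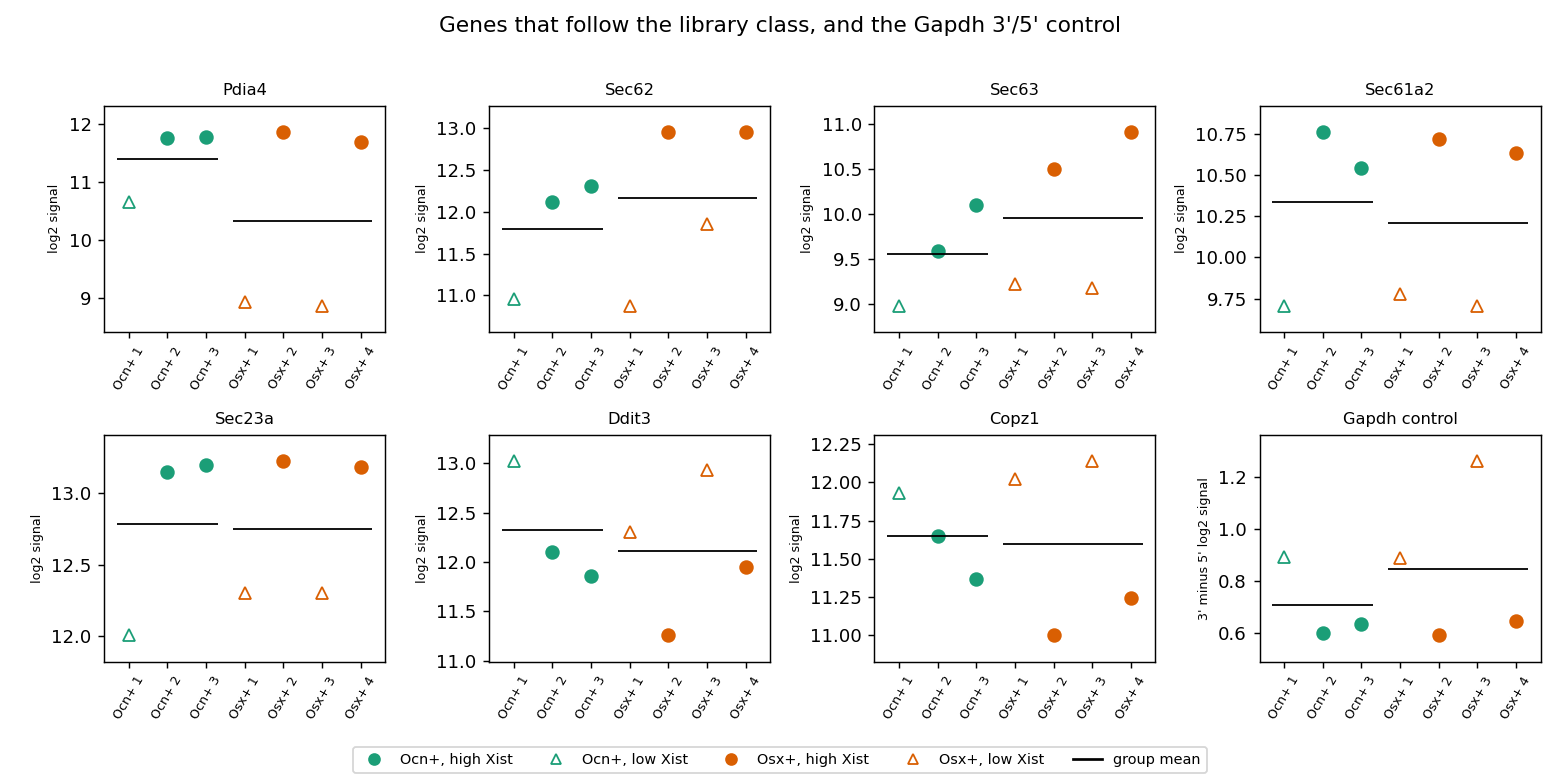
Log2 signal (vertical axes, each on its own scale) per array for 7 genes that separate the library classes, and the 3' minus 5' gap of the Gapdh control; Ocn+ arrays are green at left, Osx+ arrays orange at right, filled circles are high-Xist and open triangles low-Xist libraries, and bars are group means. Circles and triangles do not overlap in any panel, while the green and orange arrays overlap in all of them.

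Probe sets of the same gene showed the class gap to different degrees. The 24 genes with more than 1 probe set have 67 in all. For Dnajc3 the 5 probe sets gave high-Xist minus low-Xist gaps from 0.30 to 1.95, and the brightest, which represents the gene here, gave the smallest. For Sec62 the 4 probe sets ran from -0.29 to 1.36 and for Ssr1 the 3 ran from 0.29 to 1.31. The class gap in these genes depended on the probe set read.

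The Ocn+ minus Osx+ difference was read over the same probe sets. All probe sets of a gene agreed in sign for 16 of the 24 genes, 9 below and 7 above 0. The 9 included Dnajc3 (5 of 5, from -0.67 to -0.28), Sec63 (4 of 4, from -0.80 to -0.40), Sec62 (4 of 4, from -0.87 to -0.20), Canx (3 of 3, from -0.61 to -0.30), Hsp90b1 (-0.71 and -0.68) and Hspa5 (-0.29 and -0.25). Signs were mixed for the other 8 genes, among them the chaperone gene Hyou1, whose 3 probe sets ran from -0.17 to 0.48. Probe sets of a gene share the same RNA and are no replicates.

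**Figure D4:**
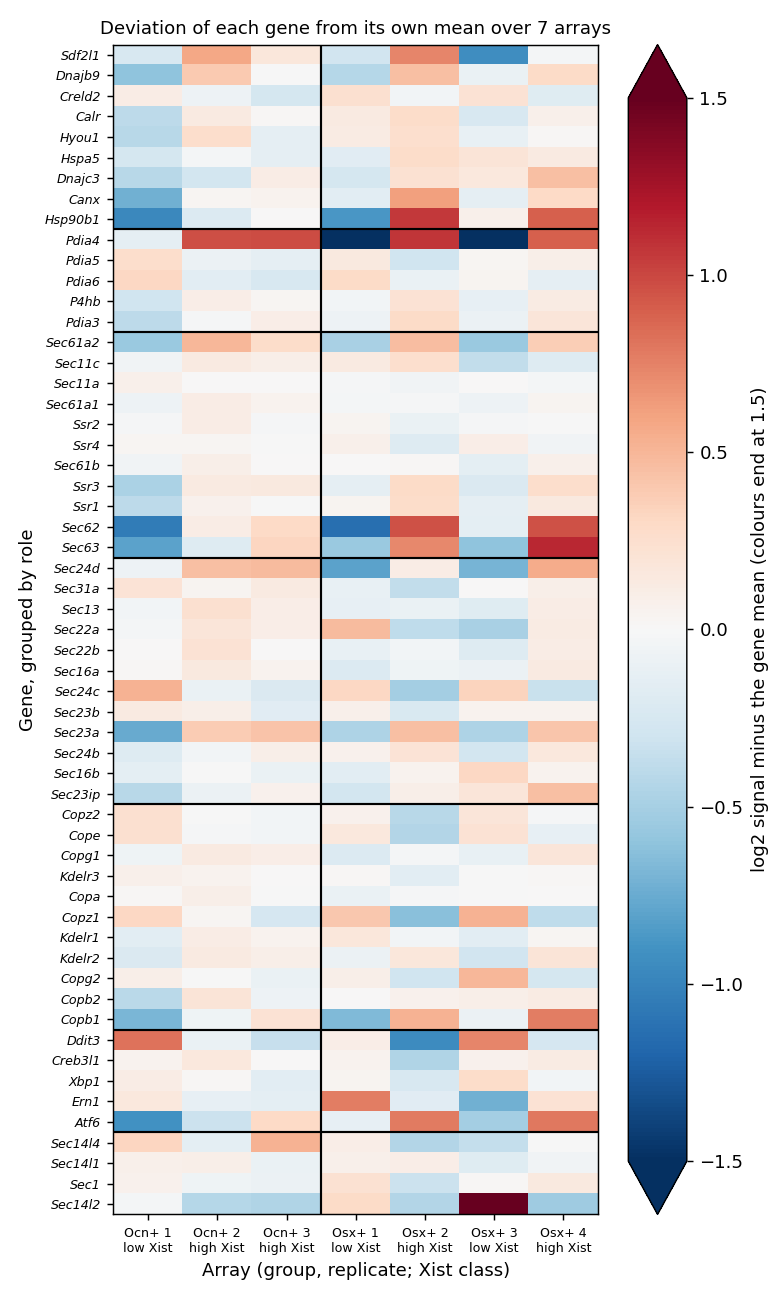
Log2 signal of each of the 57 genes on each array, as the deviation from that gene's mean over the 7 arrays (colour, red above and blue below, ending at 1.5); columns are Ocn+ replicates 1 to 3, then Osx+ replicates 1 to 4 with their Xist class, and lines divide the roles. Pdia4, Sec62, Sec63, Sec23a and Sec61a2 are blue in the 3 low-Xist columns of either population, or nearly white in the case of Pdia4 in Ocn+ replicate 1 and Sec62 in Osx+ replicate 3.

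With the Xist class as a term in the fit, 6 of the 57 genes had an unadjusted p under 0.05, all of them lower in Ocn+ cells. Taken over both directions, that share lay below the 16.0% of all genes that did so. The share of all genes lower in Ocn+ cells alone is not given here, so the common direction of these genes has no background. They were Canx (-0.48, SE 0.13), Atf6 (-0.72, SE 0.19), Hsp90b1 (-0.88, SE 0.26), Sec63 (-0.60, SE 0.22), Copb1 (-0.46, SE 0.19) and Sec62 (-0.61, SE 0.25). Their limma adjusted p ran from 0.177 to 0.307, so 0 of the 57 passed, as did 0.00% of all genes.

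Within a class the arrays are few, 2 Ocn+ against 2 Osx+ for high Xist and 1 against 2 for low Xist. Hsp90b1 differed by -1.08 within the high-Xist and -0.58 within the low-Xist libraries, Atf6 by -0.80 and -0.60, and Canx by -0.42 and -0.57. Within the high-Xist libraries both Ocn+ arrays lay above both Osx+ arrays for 8 of the 57 genes, where the share over all genes was 33.7%. They lay below for 17 of the 57, where it was 21.5%.

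The other genes of the pathway were followed in 6 lists, in which 0 genes passed in limma. At an unadjusted p under 0.05 there was 1 gene higher and 2 lower in Ocn+ cells.

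Among 16 other stress response genes, 11 were above 0, with a median of 0.11. Creb3l3, a membrane-bound relative of Atf6 best known from liver, stood at 8.06 ± 0.13 on the Ocn+ arrays (SD, n = 3), against 7.28 ± 0.60 for Osx+ (SD, n = 4), a difference of 0.79 (SE 0.33, limma adjusted p = 0.938). Trib3, a CHOP target, differed by -0.86 (SE 0.66). Among 25 other folding enzymes 14 were above 0, with a median of 0.04, and the genes of smallest p were Dnajc10, a disulfide reductase of the ER (-0.49, SE 0.24), and Erp29 (0.27, SE 0.18).

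Of 24 genes for N-glycosylation and glucose trimming, 15 were above 0, with a median of 0.03. In 4 of the 24 all Ocn+ arrays lay above all Osx+ arrays, where the share over all genes was 4.37%. In 0 of them did all Ocn+ arrays lie below, where it was 2.53%. The 2 genes with an unadjusted limma p under 0.05 both had a lower mean in Ocn+ cells, with overlapping groups. Uggt1, the sensor that returns misfolded glycoproteins to Canx and Calr, stood at 7.86 ± 0.53 on the Ocn+ arrays (SD, n = 3), against 8.65 ± 0.26 for Osx+ (SD, n = 4), a difference of -0.79 (SE 0.28, limma adjusted p = 0.888). Magt1, a subunit of oligosaccharyltransferase, differed by -0.80 (SE 0.29, limma adjusted p = 0.888). Its signals were dim, at 5.59 to 6.26 in Ocn+ and 6.09 to 7.07 in Osx+ arrays, and no detection calls were used here.

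Of 21 genes of ER-associated degradation 14 were above 0, with a median of 0.06. Ube2g2, a ubiquitin-conjugating enzyme, differed by 0.21 (SE 0.18) and Vcp, the ATPase that extracts substrates, by -0.16 (SE 0.16). Of 13 signal peptide targeting and cleavage genes 7 were above 0, with a median of 0.05; Spcs3 differed by -0.39 (SE 0.24) and Srp19 by -0.22 (SE 0.17). Of 46 other ER to Golgi genes 30 were above 0, with a median of 0.09, and Arf5 (0.79, SE 0.34) and Tmed4 (0.33, SE 0.16) were higher on all Ocn+ arrays than on any Osx+ array without passing.

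Osteoblast genes are the check of the sorted lineage. The osteoblast list, of which 8 of 12 genes were measured, had an array mean of 13.18 to 13.72 in Ocn+ and 12.78 to 13.75 in Osx+ arrays, and Col1a1 differed by -0.05 and Col1a2 by 0.02. Plasma cells are rich in secretory pathway genes. Their list with B cells (13 of 16 measured) had a mean of 6.92 to 7.65 in Ocn+ and 6.61 to 8.29 in Osx+ arrays, with 5 genes above and 8 below 0.

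Array means of several lists of other cell types did not overlap between the populations, with 0 of their genes passing in limma. Endothelial markers were above 0 for 15 of 15 (10.03 to 10.40 in Ocn+ and 6.50 to 9.62 in Osx+ arrays), neutrophil markers for 12 of 12 (11.18 to 11.39 and 7.68 to 10.74) and osteoclast markers for 10 of 10 (10.02 to 10.39 and 8.06 to 9.87). Macrophage markers were below 0 for 13 of 15 (9.15 to 10.09 and 10.13 to 11.38) and cartilage markers for 11 of 13, with overlapping means (10.08 to 11.48 in Ocn+ and 11.16 to 12.73 in Osx+ arrays). The means also overlapped for megakaryocytes (4 of 8 above 0), erythroid cells (2 of 9) and mast cells (6 of 9). The part of these cell types in the secretory gene values was not tested.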

How the data were processed

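The deposited values are log2 signals of probe sets, computed by RMA per the submitters' processing notes. The RMA version was not found in the labels. RNA was amplified from the 3' end by the NuGEN method, per the labels' protocols. Arrays have no read depth, so 3 against 4 arrays limit the precision.

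Probe sets with 1 symbol in the platform annotation were used (20380 of 22690), and symbols were updated by Entrez identifier. Each gene's Ocn+ minus Osx+ difference was fitted without a block by limma 3.58.1 (lmFit and eBayes, R 4.3.3), and its 2-sided p adjusted by Benjamini-Hochberg across 12393 genes, with calls under 0.05. The fit was tested first on simulated data with 200 changed genes. At an adjusted p under 0.05 it recovered 23.9% of changes of 1 log2 unit, 67.6% of 2 and 91.8% of 4. There were 9.6 false calls per run. Members, roles, lists and alternatives were chosen with earlier results of these data known. Named with values are the 4 members of smallest p per role, all 5 regulators, Hspa5 and the 2 genes of smallest p per pathway list; other members named were picked after their values were seen. Protein sequences were not used here.

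The alternatives were the replicate number as a block, each array left out, 2 signal filters, 2 normalizations, another prior, array weights, 2 other probe set rules, a threshold of 0.1, and the Xist class (log2 signal over or under 8).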

Additional observations from a re-analysis of the deposited data

Results flagged for a closer look

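Among the 41 genes chosen by the naming rule, the 4 Osx+ arrays were checked for an array far from the others, and 1 was found. Creb3l1 stood at 11.63 in Osx+ replicate 2, against 12.13 to 12.22 in the other Osx+ arrays, a gap of 0.862 of the group's range. Chance flags about 1 in 20 such groups. Without that array the Creb3l1 difference was -0.0070, and 0.13 with it.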

How the results depend on the processing

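Under every alternative run, 0 of the 57 genes had an adjusted p under 0.05, nor did any under 0.1 in the fit of all 7 arrays, and the median difference stayed between -0.04 and 0.05. Over all genes limma called 97 with array weights and 19 within the high-Xist libraries, and 0 to 3 with 1 array left out (3 without Osx+ replicate 2 and 3 without Osx+ replicate 3). At an unadjusted limma p under 0.05, 5 of the 57 were lower with array weights and 6 with the Xist term. Within the high-Xist libraries 5 were lower. With the replicate block 1 was higher, and with 1 array left out each count was 0 to 1. With the Xist term 16.0% of all genes reached that threshold, in either direction. For the other fits that share is not given here, so their counts show nothing particular to the 57 genes. Above 0 lay 18 after median centring (42.8% of all genes) and 22 to 32 with 1 array left out (46.9% to 57.9% of all genes). Groups did not overlap in the higher direction for 0 genes after quantile normalization, median centring or averaging of probe sets, 8 within the high-Xist and 19 within the low-Xist libraries. With 1 array left out it was 1 to 5 (5 without Osx+ replicate 4, 4 without Ocn+ replicate 3, 3 without Ocn+ replicate 2, 2 without Ocn+ replicate 1). In the lower direction it was 17 and 23 within the classes and 0 to 5 with 1 array left out (5 without Osx+ replicate 1, 2 without Ocn+ replicate 2, 1 without Ocn+ replicate 1 or 3). Fewer arrays overlap less often by construction. Among all genes, leaving out 1 array separated the groups for 4.99% to 9.21% in the higher and 3.87% to 5.86% in the lower direction. The 2 counts of 5 stand beside shares of 5.91% (higher) and 5.86% (lower). Inside the high-Xist class the shares were 33.7% higher and 21.5% lower. Inside the low-Xist class, with its single Ocn+ array, they were 30.7% and 28.9%. The count of 7 element genes below 0, chosen after seeing the data, was 6 to 7 under the alternatives.

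Signs turned for 15 of the 41 named genes, Pdia4, Sec14l2, Sec62 and Ddit3 with larger differences among them, and the cause was not tested. With the replicate block Ern1 was 0.0034, with median centring Sec14l1 was -0.027, with array weights Copb2 was 0.0021 and Xbp1 0.040, and with the mean of probe sets Ern1 was 0.047 and Vcp 0.14, and Vcp was 0.44 with the probe set of largest variance. With the Xist term Pdia6 was 0.012 and Xbp1 0.021. Within the high-Xist libraries Pdia4 was -0.0080, Sec14l2 0.046, Sec1 0.012, Sec14l1 -0.026 and Xbp1 0.066, and within the low-Xist libraries Pdia6 was 0.14, Creb3l1 -0.0015 and Ern1 0.13. With 1 array left out P4hb ran from -0.18 to 0.020, Sec62 from -0.80 to 0.048, Ddit3 from -0.13 to 0.49, Pdia6 from -0.22 to 0.053, Xbp1 from -0.10 to 0.066, Sec1 from -0.16 to 0.020, Ern1 from -0.31 to 0.19, Copz2 from -0.013 to 0.19, Creb3l1 from -0.0070 to 0.19, Sec14l1 from -0.020 to 0.10 and Sec11c from -0.0045 to 0.20. Deviations of same-numbered arrays correlated at 0.63, 0.45 and -0.30 for replicates 1, 2 and 3. The arrays numbered 1 and those numbered 2 share a Xist class, and those numbered 3 do not. For replicates 1 and 2, pairing by number therefore cannot be told apart from a shared Xist class. What sets these correlations was not tested. In the fit with the replicate block 0 of the 57 genes passed.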
